A study of Mus musculus with 2 samples.

Results

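The genes described here carry bile acids across the intestinal wall and signal their passage to the liver: Slc10a2, Fabp6, Slc51a, Slc51b, Fgf15, Fgfr4, Klb and Gpbar1. They were chosen by name and make up 8 of the 43346 Ensembl genes measured. Polyadenylated RNA came from sigmoid colon, the lower end of the large bowel next to the rectum, of 1 adult female C57BL/6J mouse aged 10 weeks. The labels give 2 technical libraries of this animal, made in the same laboratory from RNA extracted with a kit for fatty tissue. Library 2 was made in 2015, after the publication that used library 1. There was 1 group, with no treatment, second genotype or second mouse, so an SD below is over 2 technical libraries and covers no variation between animals.

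Bile acids are made from cholesterol in the liver, secreted into the small intestine and largely taken back up in the ileum, its last stretch. There the apical carrier Slc10a2 imports them, the cytosolic protein Fabp6 binds them, and the heteromer of Slc51a and Slc51b exports them towards portal blood. Bile acids in the enterocyte activate the nuclear receptor FXR (gene Nr1h4), which induces the hormone gene Fgf15. FGF15 acts on hepatocytes through the receptor Fgfr4 with its co-receptor Klb to repress Cyp7a1, the rate-limiting enzyme of bile acid synthesis. Gpbar1, also known as TGR5, is a G-protein-coupled receptor for bile acids at the cell surface. Bile acids that escape the ileum reach the colon, where a smaller part is absorbed.

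In this colon the export subunit Slc51b was the most abundant of the 8 genes, and the hormone gene Fgf15 was at or near 0. In TPM, a level corrected for gene length and library size, Slc51b stood at 25.6 TPM in library 2 and 12.2 TPM in library 1. It made up 52.3% of the summed TPM of the 8 genes in library 2 and 74.4% in library 1. Fgf15 had 1 count in library 2 and 0 counts in library 1. The import carrier Slc10a2 was at 0.62 TPM in library 2 and 1.04 TPM in library 1. The 8 genes together took 49.0 TPM from 870 expected counts in library 2, and 16.4 TPM from 324 expected counts in library 1. A level of at least 1 TPM was reached by 4 of the 8 genes in library 2 and by 3 in library 1.

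Library 2 held 20681574 expected counts over all genes and library 1 held 25843064. The libraries differed in more than depth. The mitochondrial chromosome took 12.6% of all TPM in library 2 and 44.2% in library 1, and everything other than nuclear protein-coding genes, this chromosome included, took 24.7% in library 2 and 68.7% in library 1. For this reason the levels of all but Fgf15 are also given on a scale of TPM summed over the 21461 nuclear protein-coding genes alone. Of these genes, 13309 reached 1 TPM in library 2 and 10193 in library 1. Intervals on counts cover counting error only, and the floor set for a gene at 0 was 3 counts, or 0.145 CPM in library 2 and 0.116 CPM in library 1 (counts scaled to the library total).

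The upstream sequence of Fabp6, a classical target of FXR in the ileum, is shown. Of the members' promoters at hand, it alone held matches to the motif described below. It runs 5′ to 3′ on the gene's strand and ends before the annotated starts of transcription, from RefSeq on GRCm38.p6. Capitals mark letters that resemble the FXR motif. The motif searched was AGGTCA, any base, TGACCT, with up to 2 mismatches over the 12 fixed letters.
Fabp6: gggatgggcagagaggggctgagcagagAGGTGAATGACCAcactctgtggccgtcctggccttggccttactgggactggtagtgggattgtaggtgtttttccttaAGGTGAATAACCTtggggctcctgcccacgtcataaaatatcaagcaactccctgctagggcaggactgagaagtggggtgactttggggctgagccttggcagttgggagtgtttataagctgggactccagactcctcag
The Fabp6 stretch lies at chr11:43601563-43601812 on the minus strand and holds 2 matches to the motif, each with 2 mismatches, starting at bases -222 and -142 from the RefSeq start. The motif reads the same on either strand, and the matches do not overlap. Over promoter windows of 250 bases before to 50 bases after the start, 315 of 32851 promoters (0.959%) held it at this limit, which was set after the promoters were seen, so the share does not show that the matches in Fabp6 are unusual. The windows of the other members found in the table, Slc10a2, Slc51a, Slc51b, Fgfr4, Klb and Gpbar1, did not. A match is a likeness of letters, and binding was not measured.

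**Figure D1:**
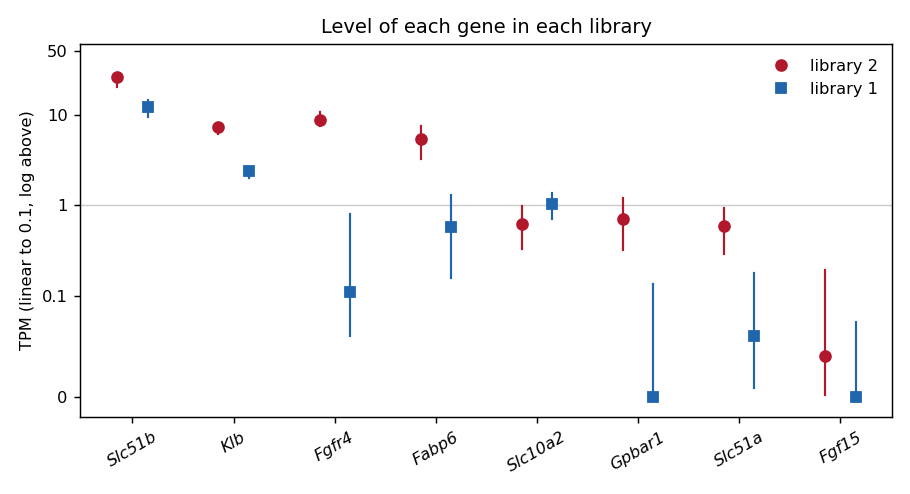
Level of each of the 8 genes in each library in TPM, on an axis that is linear up to 0.1 and logarithmic above, with library 2 as circles and library 1 as squares. Vertical lines are the deposited intervals of the TPM. Slc51b is highest in both libraries, Fgfr4 lies at 8.81 TPM in library 2 and 0.11 TPM in library 1, and Fgf15 is at 0.04 TPM in library 2 and at 0, with Gpbar1, in library 1.

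Uptake across the apical membrane depends on Slc10a2, the sodium-dependent bile acid carrier known chiefly from the ileum (ENSMUSG00000023073.1, chr8:5083219-5105351, minus strand, mm10). It had 13 expected counts in library 2 and 36 in library 1. Its level was 0.62 TPM in library 2 and 1.04 TPM in library 1, a mean of 0.83 ± 0.297 TPM (SD, n = 2 technical libraries). The deposited intervals ran over 0.328 to 0.976 TPM in library 2 and 0.711 to 1.37 TPM in library 1, so they overlapped. Over nuclear protein-coding genes alone the level was 0.823 TPM in library 2 and 3.32 TPM in library 1. Of the nuclear protein-coding genes, 34.9% had a lower level than Slc10a2 in library 2 and 52.8% in library 1.

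Fabp6, the ileal bile acid-binding protein (ENSMUSG00000020405.4, chr11:43596049-43601540, minus strand), had the reverse order. It had 23 counts in library 2 and 4 in library 1. Its level was 5.32 TPM in library 2, with a deposited interval of 3.27 to 7.41 TPM, and 0.57 TPM in library 1, with an interval of 0.157 to 1.29 TPM. The intervals of the libraries did not overlap. The mean was 2.945 ± 3.36 TPM (SD, n = 2 technical libraries), an SD larger than the mean. Over nuclear protein-coding genes alone the level was 7.06 TPM in library 2 and 1.82 TPM in library 1. Per length, Fabp6 stood 8.53-fold above Slc10a2 in library 2 (exact 95% interval 4.14 to 18.3) and at 0.551 of it in library 1 (0.142 to 1.54). Fabp6 thus led in library 2, while in library 1 the interval included equal levels, and the intervals of the libraries did not overlap.

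Export across the basolateral membrane needs both Slc51a and Slc51b, which work as OSTα and OSTβ. Slc51b, the single-pass subunit (ENSMUSG00000053862.5, chr9:65412714-65422955, minus strand), had 114 counts in library 2 and 88 in library 1. Its deposited intervals were 19.9 to 28.8 TPM in library 2 and 9.46 to 14.4 TPM in library 1, and the mean was 18.91 ± 9.49 TPM (SD, n = 2 technical libraries). The TPM intervals did not overlap, but on the scale of nuclear protein-coding genes the levels were close, at 34.0 TPM in library 2 and 38.9 TPM in library 1. Slc51b had a higher level than 77.5% of those genes in library 2 and 80.2% in library 1, so it kept a similar place among them.

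Slc51a, the multi-pass partner subunit (ENSMUSG00000035699.7, chr16:32474504-32487879, minus strand), was far below it. It had 12 counts in library 2 and 2 in library 1. These gave 0.59 TPM in library 2, with a deposited interval of 0.288 to 0.926 TPM, and 0.06 TPM in library 1, with an interval of 0.00873 to 0.181 TPM. The mean was 0.325 ± 0.375 TPM (SD, n = 2 technical libraries), and on the nuclear scale the levels were 0.783 TPM in library 2 and 0.191 TPM in library 1. Per length, Slc51b exceeded Slc51a 43.6-fold in library 2 (exact 95% interval 24.0 to 86.9) and 207-fold in library 1 (55.7 to 1739). The subunits were thus unequal in RNA in both libraries, and the intervals of the ratio overlapped between libraries. Both genes share exonic bases with a neighbour on the opposite strand in a later annotation, 567 bases of Slc51a with Pcyt1a and 91 bases of Slc51b with Rasl12. Pcyt1a had 1540 counts in library 2 and 1270 in library 1, and Rasl12 had 107 and 31. Whether counting used strand is not given in the sources used here, and without strand reads from shared bases cannot be told apart. The deposited transcript models are shorter than those of the later annotation, at 1600 against 2618 bases for Slc51a and 488 against 709 for Slc51b. Whether the shared bases lie within the deposited models was not tested.

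**Figure D2:**
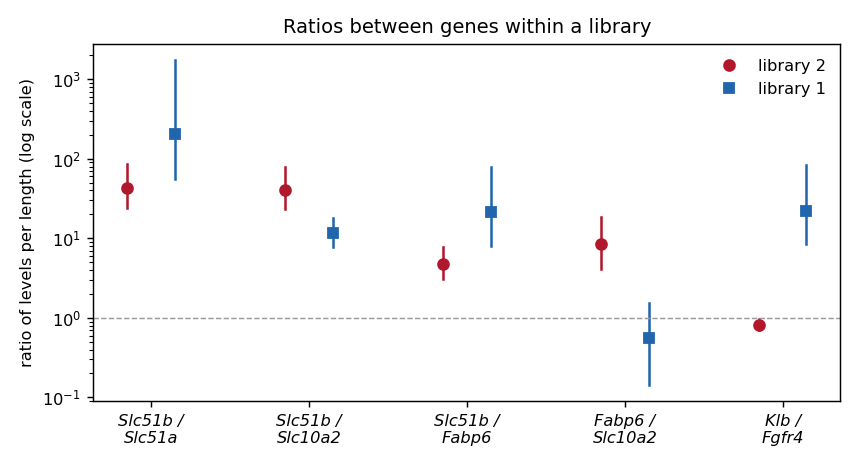
Ratio of the levels of named gene pairs within each library, per length and on a logarithmic axis, with library 2 as circles and library 1 as squares. Lines are exact 95% intervals from the counts and the dashed line marks equal levels. Slc51b lies above Slc51a in both libraries, and Klb over Fgfr4 is 0.825 in library 2 and 22.3 in library 1.

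Slc51b also stood above the uptake carrier Slc10a2 and the binding protein Fabp6. It exceeded Slc10a2 per length 41.1-fold in library 2 (exact 95% interval 23.1 to 79.5) and 11.8-fold in library 1 (7.89 to 17.8). It exceeded Fabp6 4.81-fold in library 2 (3.06 to 7.90) and 21.3-fold in library 1 (8.05 to 80.1). Every one of these intervals lay above 1, so by these counts Slc51b led both genes in each library. The intervals cover counting error only. The deposited transcript model of Slc10a2 has 1629 bases, against 4152 in the later annotation. What this and the GC content of the genes, given below, do to these ratios was not tested. The genes whose TPM lay nearest to those of Slc51b over the 2 libraries, among annotated protein-coding genes outside the lists used here, were Fzd5 (25.4 and 12.1 TPM), Patj (25.3 and 12.4 TPM) and Mcoln2 (26.2 and 12.1 TPM), each given for library 2 and then library 1. The likeness is a distance on log2(TPM + 0.1) over only 2 points.

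The hormone gene Fgf15, the mouse counterpart of human FGF19 (ENSMUSG00000031073.5, chr7:144896531-144900953, plus strand), was barely seen. Its single count in library 2 gave 0.04 TPM, and library 1 had 0 counts. The mean was 0.02 ± 0.0283 TPM (SD, n = 2 technical libraries). The deposited interval reached up to 0.192 TPM in library 2 and 0.074 TPM in library 1, which bounds the level at this depth without showing that it is absent. Both counts are under the floor, so no fold is given. In a later annotation it shares 761 exonic bases with Gm26793 on the opposite strand, which had 1 count in each library.

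Klb stood above Fgf15 in both libraries, while the deposited intervals of Fgfr4 and Fgf15 overlapped in library 1. Klb, β-klotho, the co-receptor that FGF15 and FGF21 need (ENSMUSG00000029195.7, chr5:65348314-65384007, plus strand), had 343 counts in library 2 and 190 in library 1. Its level was 7.27 TPM in library 2 (deposited interval 6.16 to 7.61) and 2.41 TPM in library 1 (2.00 to 2.66), a mean of 4.84 ± 3.44 TPM (SD, n = 2 technical libraries). Over nuclear protein-coding genes alone these became 9.65 TPM in library 2 and 7.69 TPM in library 1. Klb lay above 56.1% of those genes in library 2 and 61.0% in library 1, in the middle of the range both times.

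Fgfr4, the receptor tyrosine kinase that binds FGF15 with Klb (ENSMUSG00000005320.9, chr13:55152640-55168759, plus strand), had the largest ratio between the libraries of the 5 genes tested below. It had 355 counts in library 2 and 4 in library 1. Its level was 8.81 TPM in library 2 (deposited interval 7.50 to 10.8) and 0.11 TPM in library 1 (0.06 to 0.81), a mean of 4.46 ± 6.15 TPM (SD, n = 2 technical libraries). Over nuclear protein-coding genes alone it had 11.7 TPM in library 2 and 0.351 TPM in library 1. In library 2 it was among the middle of the nuclear protein-coding genes, above 59.0% of them, and in library 1 it was above 35.5%. Klb stood at 0.825 of Fgfr4 per length in library 2 (exact 95% interval 0.709 to 0.960) and 22.3-fold above it in library 1 (8.57 to 82.7). By this ratio the receptor was slightly above its co-receptor in RNA in library 2, where their deposited intervals overlapped, and far below it in library 1. The effective length of Fgfr4 was 2805 bases in library 2 and 1539 bases in library 1. It depends on how reads were split over its transcripts, which the exact intervals do not cover. The longest transcript alone had 7.71 TPM in library 2.

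The deposited transcript tables list 3 transcripts of Fgfr4. The longest, of 3324 bases, took 87.56% of the gene's level in library 2 from 348.52 expected counts, and 41.6% in library 1 from 3.39 expected counts, a mean of 64.6 ± 32.5% (SD, n = 2 technical libraries). A transcript of 590 bases took 12.44% in library 2 from 6.48 counts and 58.4% in library 1 from 0.61 counts. The third was at 0 in both. With 4 counts in all, the share in library 1 says little. Each of the other 7 genes had a single transcript in the tables.

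Gpbar1, known in the gut from hormone-producing L cells and elsewhere from macrophages (ENSMUSG00000064272.3, chr1:74278550-74279624, plus strand), had 9 counts in library 2 and 0 in library 1. That is 0.70 TPM in library 2, with a deposited interval of 0.318 to 1.19 TPM, and 0 TPM in library 1, with an upper bound of 0.134 TPM. The mean was 0.35 ± 0.495 TPM (SD, n = 2 technical libraries), and on the nuclear scale the level in library 2 was 0.929 TPM. With library 1 set at the floor of 3 counts, the scaled count of library 2 was 2.23-fold higher. That figure takes the 9 counts as exact, and the exact 95% interval of the ratio, which does not, began at 1.47.

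Ordered by TPM, library 2 ran from Slc51b over Fgfr4, Klb, Fabp6, Gpbar1, Slc10a2 and Slc51a to Fgf15. The deposited intervals of Fgfr4, Klb and Fabp6 overlapped between neighbours, as did those of Gpbar1, Slc10a2 and Slc51a. Library 1 ran from Slc51b over Klb, Slc10a2, Fabp6, Fgfr4 and Slc51a to Gpbar1 and Fgf15, which were both at 0. There the intervals separated Slc51b, Klb and Slc10a2 from one another, and from Slc10a2 downwards each overlapped the next. By the mean over libraries, Slc51b lay more than its SD plus that of Klb above Klb, and the other neighbours did not differ beyond their SDs.

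The 2 libraries were then compared by their reads, which asks how far a level of these genes can be taken from 1 library. Counts were scaled by effective library sizes, tested by a two-sided exact binomial test and adjusted by Benjamini-Hochberg over the 15705 genes with a mean count of at least 10. A gene was called at an adjusted p under 0.05 with at least a 2-fold ratio. Of the 8 genes, 5 were tested, and 2 were called higher in library 2, 1 lower and 2 not called. Of all genes tested, 37% were called higher and 28.2% lower, and the median log2 ratio was 0.12 over all genes, so a call was common. Scaling by total counts called 7494 genes higher and 1836 lower, in place of 5807 and 4429, and moved the median ratio of all genes up by 0.75. A ratio of TPM put 8412 genes higher and 755 lower by at least 2-fold and moved that median up by 1.07.

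Fgfr4 was called higher in library 2, with a log2 ratio of 5.87 ± 0.68 (counting SE; adjusted p = 2.43e-78, exact binomial test), or 58.7-fold. The exact 95% interval of its ratio of scaled counts ran from 25.5 to 243. Fabp6 was also called higher, at 1.96 ± 0.74 (counting SE; adjusted p = 0.00363, exact binomial test), or 3.88-fold. Slc10a2 was called lower, at -1.86 ± 0.46 (counting SE; adjusted p = 2.16e-05, exact binomial test), or 3.64-fold lower. Klb differed by 0.42 ± 0.13 on the log2 scale (counting SE; adjusted p = 0.00145, exact binomial test), which is 1.34-fold and under the fold required. Slc51b had a log2 ratio of -0.06 ± 0.20 (counting SE; adjusted p = 0.843, exact binomial test), and its exact 95% interval covered ratios of 0.722 to 1.29. Klb was called higher when scaled by total counts, at 1.17, and by the ratio of TPM, at 1.55. The ratio of TPM of Slc51b was 1.06, and with the trend on transcript length taken off Slc51b was called lower, at -1.39.

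Slc51a, Fgf15 and Gpbar1 were under the count minimum and were not tested. The scaled counts of Slc51a had a ratio of 4.46 with an exact 95% interval of 0.992 to 41.0. With no minimum, Slc51a (adjusted p = 0.0486, exact binomial test) and Gpbar1 (adjusted p = 0.0197, exact binomial test) were called higher in library 2. These rest on 2 and 0 counts in library 1.

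The ratio between the libraries moved with the GC content of the transcripts, the share of bases that are G or C, over all genes. Fgfr4 has 58.8% GC, and the trend over all genes at that GC was a log2 ratio of 4.33. For Fabp6, at 52.6% GC, the trend stood at 1.23. For Slc51b, at 50.6%, it was 0.45, and for Klb, at 49.5%, it was 0.08. For Slc10a2, at 35.7%, it was -2.58. The order of the 5 genes by GC matched their order by ratio except that Klb lay above Slc51b. The untested genes Gpbar1, Slc51a and Fgf15 have 61.3, 47.7 and 50.8% GC. The part of GC content in these differences was not tested.

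**Figure D3:**
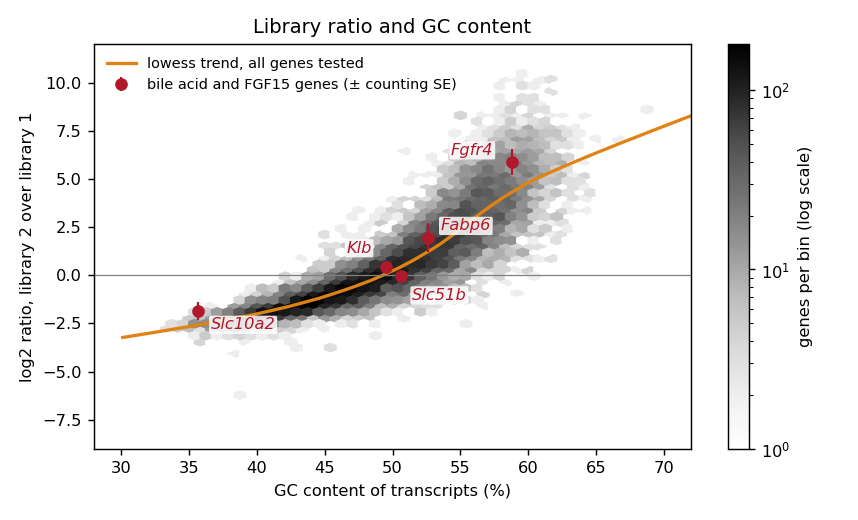
Log2 ratio of scaled counts, library 2 over library 1, against the GC content of each gene's transcripts in percent, for all genes tested (grey, genes per bin on a logarithmic colour scale). The line is the lowess trend and red points are the 5 tested bile acid and FGF15 genes with their counting SE. Slc10a2 sits at the low-GC end, below 0, and Fgfr4 at the high-GC end, at 5.87.

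With the GC trend taken off, 12.4% of 15658 genes were called higher in library 2 and 11.1% lower. Fgfr4 was still called higher, by 1.54 on the log2 scale. Fabp6 was at 0.73 and no longer called, and it also lost its call with the trend on transcript length taken off, at 0.65. Slc10a2 turned round to 0.71 and was not called. Its transcript has 4152 bases in the annotation used for GC and 1629 in the deposited model, and the coding part has 45.9% GC. With the GC of the coding part used instead, Slc10a2 was at -0.63 and not called, Fabp6 was called at 1.84 and Fgfr4 at 3.05. By the ratio of TPM, Slc10a2 was at -0.66, under the fold required.

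The pathway's other genes were read from lists of related function. The counts called in each list stand beside 37% of all genes called higher and 28.2% lower. With the GC trend taken off these shares were 12.4% and 11.1%. Scaled by total counts, 7494 of all 15705 genes were called higher in library 2 and 1836 lower. By that scaling 8 of 12 tested nuclear receptors and regulators, 5 of 13 transporters and 5 of 11 synthesis genes were called higher. So were 4 of 6 FGF receptor genes, 1 of 2 FGF ligands and 1 of 4 fatty acid binding proteins, with 0 lower in these lists. Among the 9 genes of other bile acid-responsive receptors and the cAMP route, 5 were called higher and 3 lower. Of the nuclear receptors and regulators of bile acid genes, 12 of 14 were tested, 6 were called higher in library 2, 2 lower and 4 neither, with a median log2 ratio of 1.09 against 0.12 over all genes. With the GC trend taken off, 1 was called higher and 1 lower, and the median was -0.07. Nr1h4, the FXR gene, had 34.5 TPM in library 2 and 17.8 TPM in library 1 (890 and 766 counts), a log2 ratio of -0.21 that was not called. Its classical target Nr0b2, the repressor SHP, had 2 counts in library 2 and 0 in library 1. Malrd1, which affects FGF15 output in mice, was at 0.68 TPM in library 2 and 0.57 TPM in library 1 and was not called. FXR transcripts were thus plainly detected in both libraries while those of Fgf15 and Nr0b2 were at or near 0. Fabp6, also named above as a target of FXR, had 5.32 TPM in library 2 and 0.57 TPM in library 1. The activity of FXR was not tested.

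Hnf4a, a nuclear receptor of gut and liver epithelium, was the most abundant of the list at 348 TPM in library 2 and 49.2 TPM in library 1, and was called higher. Vdr, which also senses the secondary bile acid lithocholic acid, had 178 TPM in library 2 and 42.4 TPM in library 1 and was not called. Nr1i2, the xenobiotic receptor PXR, was called higher, at 53.1 TPM in library 2 and 3.72 TPM in library 1. Nr3c1, the glucocorticoid receptor, was called lower at 30.2 TPM in library 2 and 39.0 TPM in library 1, and so was Nr5a2, at 25.7 and 25.2 TPM. Calls rest on scaled counts, so a gene of near equal or higher TPM can be called lower in library 2.

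Of 18 other bile acid and organic anion transporters, 13 were tested, 4 were called higher, 1 lower and 8 neither, with a median log2 ratio of -0.06 against 0.12 over all genes. These became 1 higher and 2 lower with the GC trend taken off, with a median of 0.28. Abcc3, a basolateral exporter of conjugates, was called higher at 80.2 TPM in library 2 and 6.94 TPM in library 1. Slc10a5, a relative of Slc10a2, was called lower at 33.4 TPM in library 2 and 31.7 TPM in library 1. The prostaglandin carrier Slco2a1 was called higher at 26.7 and 3.45 TPM, and Slc10a7 was not called at 13.6 and 6.64 TPM. The hepatocyte carriers were under or near the floor, with Slc10a1 at 0 counts in both libraries and Abcb11 at 1 count in library 2 and 4 in library 1. Abcc3, Slc10a5 and Slco2a1 stood above Slc51b in TPM in library 2, and Slc10a5 did in library 1.

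Of 17 genes of bile acid synthesis and conjugation, 11 were tested, 3 were called higher, 3 lower and 5 neither, with a median log2 ratio of 0.20 against 0.12 over all genes. Taking the GC trend off left 1 higher and 0 lower. Cyp7a1, Cyp8b1 and Akr1d1 had 0 counts in both libraries. Scp2, a sterol carrier with a thiolase used in side-chain shortening, was called lower on its counts, 3745 in library 2 and 5671 in library 1, while its TPM ran the other way, at 274 in library 2 and 96.1 in library 1. Hsd17b4 was not called at 42.1 and 12.8 TPM. Hsd3b7 (44.6 TPM in library 2 and 5.18 TPM in library 1) and the sterol hydroxylase Cyp27a1 (33.7 and 2.81 TPM) were called higher.

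Of 8 other FGF receptors, co-receptors and adaptors, 6 were tested, 4 were called higher, 1 lower and 1 neither, with a median log2 ratio of 2.35 against 0.12 over all genes. Once the GC trend was taken off, 0 were called higher and 1 lower, against 12.4% and 11.1% of all genes, and the median was -0.69. Fgfr2 was the most abundant receptor, at 58.2 TPM in library 2 and 35.3 TPM in library 1, and was not called. Fgfr3 (30.6 TPM in library 2 and 1.96 TPM in library 1) and Fgfr1 (18.2 and 1.51 TPM), which pairs with Klb for FGF21, were called higher. The adaptor Frs2 was called lower at 14.99 and 15.2 TPM. The α-klotho gene Kl, the co-receptor for FGF23, had 4 counts in library 2 and 12 in library 1. Fgfr4 was thus below Fgfr1, Fgfr2 and Fgfr3 in TPM in each library.

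Of 11 other ligands of FGFR4 and endocrine FGFs, 2 were tested and 0 were called in either direction, with a median log2 ratio of -0.14 against 0.12 over all genes. With DESeq2 size factors 1 was called lower, and with total counts 1 was called higher. Fgf1, which binds all FGF receptors, had 22.1 TPM in library 2 and 16.7 TPM in library 1, a log2 ratio of -0.99 with an adjusted p of 3.65e-66 by the exact binomial test that stayed just under the fold required. Fgf2 had 1.60 TPM in library 2 and 0.79 TPM in library 1, with an adjusted p of 0.313 by the exact binomial test. Fgf18 (0.85 and 0.10 TPM) and Fgf4 (0.05 and 0.09 TPM) were not tested. Fgf21 and Fgf23, the other endocrine FGFs of the mouse, had 0 counts in both libraries, as did 4 more of the list, so no endocrine FGF reached the floor of 3 counts.

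Of 8 other fatty acid binding proteins, the family of Fabp6, 4 were tested, 1 was called higher, 1 lower and 2 neither, with a median log2 ratio of -0.28 against 0.12 over all genes. These became 2 higher and 0 lower with the GC trend taken off, with a median of 1.504. Fabp2, the intestinal form, had 322 TPM in library 2 and 252 TPM in library 1 and was not called. Fabp4, of fat and macrophages, was not called at 101 and 32.5 TPM. Fabp5 was called higher at 18.1 and 2.61 TPM, and Fabp7 lower at 1.11 and 1.54 TPM. Fabp6 was below Fabp2, Fabp4 and Fabp5 in both libraries.

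All 9 genes of other bile acid-responsive receptors and of the cAMP route used by Gpbar1 were tested, and 4 were called higher, 3 lower and 2 neither, with a median log2 ratio of 0.51 against 0.12 over all genes. Taking the GC trend off left 2 higher and 1 lower, with a median of -0.06. Gnas, which encodes the stimulatory G protein, had 518 TPM in library 2 and 172 TPM in library 1 and was not called. The adenylyl cyclase Adcy6 was called higher at 112 and 3.78 TPM. The chloride channel Cftr was called lower at 45.2 TPM in library 2 and 73.3 TPM in library 1, and so was the factor Creb1, at 13.5 and 23.4 TPM. These partners were above Gpbar1 itself, at 0.70 and 0 TPM.

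**Figure D4:**
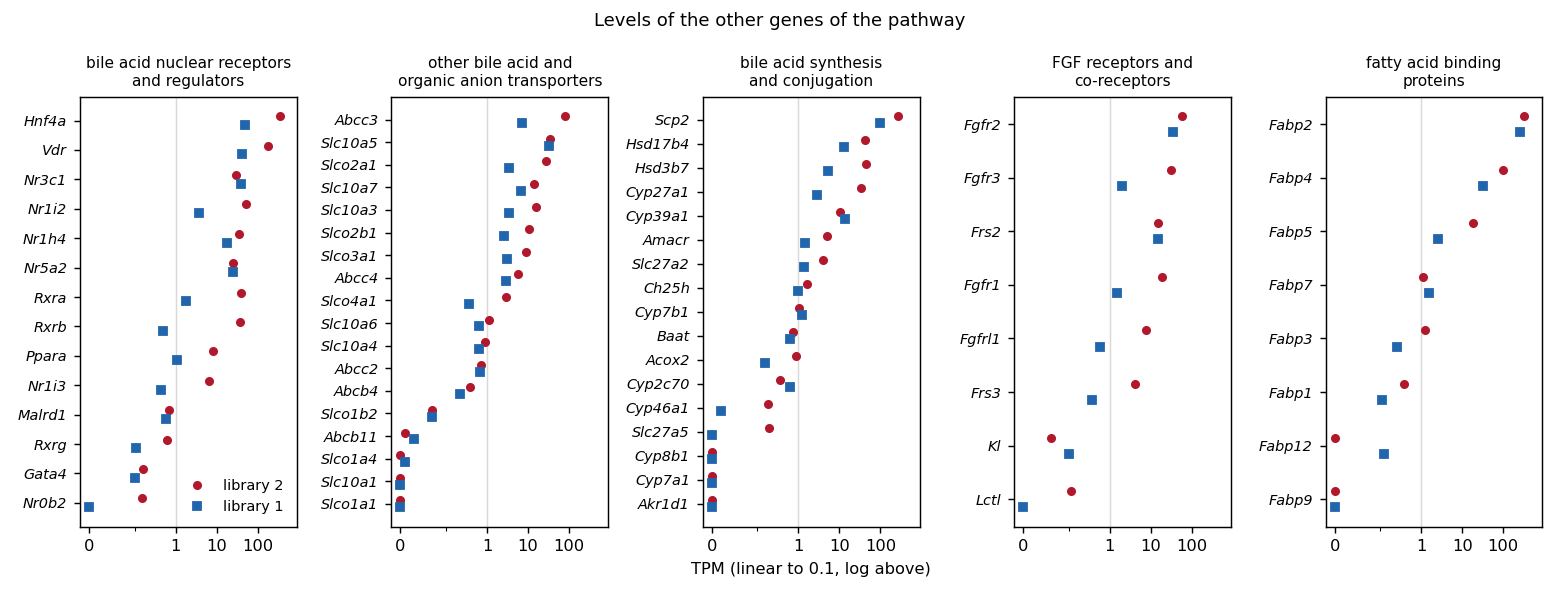
Level in TPM of the genes of 5 lists around the bile acid and FGF15 genes, on axes linear up to 0.1 and logarithmic above, with library 2 as circles and library 1 as squares. Each row is a gene, ordered by mean level. Hnf4a, Scp2 and Fabp2 lead their lists, while Cyp7a1, Cyp8b1, Akr1d1, Slc10a1 and Slco1a1 are at 0 in both libraries.

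Marker lists of the cells in which these genes are known were read as levels. The 9 colonocyte markers, all detected in both libraries, summed to 18752 TPM in library 2 and 4513 TPM in library 1. The 12 small intestinal enterocyte markers summed to 515 TPM in library 2 and 364 TPM in library 1, most of it Fabp2 and, in library 2, Rbp2 or, in library 1, Apob. Of the same list, Slc5a1 had 58.9 TPM in library 2 and 33.3 TPM in library 1. Lct (0.03 and 0 TPM) and Sis (0.13 and 0.19 TPM) were at or near 0 in both libraries. The 8 liver markers summed to 64.2 TPM in library 2 and 9.23 TPM in library 1, most of it Ttr (36.5 and 3.39 TPM) and Tat (23.2 and 5.15 TPM), with Alb at 1.79 and 0.43 TPM. The 7 general epithelial markers summed to 7667 TPM in library 2 and 848 TPM in library 1. Of these, 5 were called higher in library 2 and 0 lower, which became 2 and 2 with the GC trend taken off. Over nuclear protein-coding genes alone the small intestinal sum was lower in library 2, at 684 TPM against 1161 TPM in library 1. On that scale the sums were 24889 and 14405 TPM for colonocyte, 85.2 and 29.5 for liver, and 10175.5 and 2707 for general epithelial markers.

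The 8 macrophage markers summed to 590 TPM in library 2 and 125 TPM in library 1, and the 6 L cell markers to 724 and 154 TPM, with 4 of each list called higher in library 2 and 1 lower. The 8 adipocyte markers summed to 374 TPM in library 2 and 158 TPM in library 1, with 4 called higher and 1 lower. The 8 enteric neuron markers summed to 92.4 TPM in library 2 and 83.3 TPM in library 1, with 2 called higher and 2 lower. Over nuclear protein-coding genes alone the neuron sum was lower in library 2, at 123 TPM against 266 TPM in library 1. The adipocyte sums were close there, at 496 and 504 TPM. Those of macrophage (783 and 399 TPM) and L cell markers (961 and 491 TPM) stayed higher in library 2. The colonocyte list had 5 called higher and 2 lower, the small intestinal list 3 and 3 of 10 tested, and the liver list 1 and 0 of 3 tested. These counts stand beside the 37% of all genes called higher and 28.2% called lower. With the GC trend taken off, 12.4% of all genes were called higher and 11.1% lower. Then 4 of 8 tested macrophage, 1 of 6 L cell, 4 of 8 adipocyte and 3 of 9 colonocyte markers were called higher. So were 2 of 10 small intestinal and 2 of 3 liver markers, with 0 of each of these lists lower. Of 8 enteric neuron markers, 0 were called higher and 3 lower. With the length trend taken off, 4925 of all 15705 genes were called higher and 5469 lower. The colonocyte list then had 2 higher and 3 lower, the L cell list 2 and 1, and the liver list 0 and 0. The small intestinal list had 3 and 4, the adipocyte list 4 and 2, and the enteric neuron list 3 and 3. The macrophage list had 4 and 1, and the general epithelial list 4 and 0. No marker of any list had 0 counts in both libraries. The part of these cells in the levels of the bile acid genes was not tested. In bulk RNA, fewer cells of a type and less RNA per cell cannot be told apart.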

How the data were processed

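Polyadenylated RNA of 1 mouse was sequenced in 2 technical libraries, grouped by the labels' technical replicate number. The authors deposited a gene and a transcript table per library on mm10 with GENCODE M4, as the accompanying text files say. Which aligner, quantifier and strandedness were used is not given in the sources used here. The authors' columns, per the file headers, are expected counts, TPM, a posterior mean TPM, FPKM, TPM interval bounds (their level is not given in the sources used here) and, for transcripts, each transcript's percent of its gene. Of 69691 entries, 43346 are Ensembl genes. The other entries held 1 count in library 2 and 0 in library 1 and were left out.

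Symbols (42462 genes), positions, overlaps and transcript GC came from GENCODE M21 on GRCm38, with 97.9% of 103639 transcripts matched. A GC value was at hand for 99.7% of the genes tested. Promoters came from RefSeq tables on GRCm38.p6, for 7 of the 8 genes, trimmed to lie before both annotations' starts. The motif's mismatch limit was set after the promoters were seen.

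Expected counts were rounded. A single library on either side leaves edgeR's quasi-likelihood test without residual degrees of freedom, so counts were tested by a two-sided exact binomial test given TMM effective sizes (edgeR 4.0.16, R 4.3.3; library 2 over library 1 was 1.35). Log2 ratios used a prior count of 0.5. The test compares these libraries' reads, not conditions or mice. It was also run on counts simulated at a fixed library ratio, with only counting error and planted changes. Those counts lack the GC trend, so that run cannot show how well the calls hold in these libraries. Ratios between genes are per effective length. Trends were lowess fits with a fraction of 0.2 (statsmodels 0.14.6, scipy 1.17.1, Python 3.11.15). Alternatives were DESeq2 1.42.0 size factors, total counts, TMM over nuclear protein-coding genes, other count minimums, GC and length trends taken off, TPM ratios and other level units.

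The genes and lists were chosen with earlier results of these data known. Named genes were all 8 members, the 4 genes of each surrounding list with the highest mean TPM, and direct partners. Other named genes are markers, overlapping neighbours, the 3 genes nearest to Slc51b, and genes named as at 0, chosen after their values were seen. A gene of the nuclear receptor and regulator list is not reported here.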

Additional observations from a re-analysis of the deposited data

How the results depend on the processing

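Over all genes, the count called higher in library 2 was 5807, and 1947 with the GC trend taken off or 3144 with the trend on the GC of the coding part, an alternative added after seeing the data. The count called lower was 4429, and 1836 with total counts, 1739 with the GC trend taken off and 755 by the ratio of TPM. The log2 ratio of Slc10a2 was -1.86, and 0.71 and not called with the GC trend taken off. That of Slc51b was -0.06, and 1.06 by the ratio of TPM, above the fold required. Slc51b was also called lower with the length trend taken off, at -1.39, and its uncalled ratio was 0.69 with total counts and 0.33 with the coding GC trend taken off. Fgfr4 was called higher under all 9 alternatives, with log2 ratios from 1.54 to 6.63. The mean level over nuclear protein-coding genes alone was 2.07 TPM for Slc10a2, 36.5 for Slc51b and 8.67 for Klb, against 0.83, 18.91 and 4.84 TPM over all genes. The posterior mean for Fgf15 was 0.05 TPM, against 0.02. The cause was not tested for these, beyond what each alternative changes by its construction. With a mean count of at least 50, Slc10a2 and Fabp6 gave no value. Each library alone gave the levels printed in the results, from 0 to 25.62 TPM. No paired analysis was possible because there is 1 group. Low counts limit the precision for Slc51a, Gpbar1, Fgf15 and, in library 1, Fgfr4 and Fabp6, each with 4 or fewer counts there. Library 1 held more counts in total, but 24.1% of them were mitochondrial, against 5.59% in library 2. Its TMM effective size was the smaller (library 2 over library 1 was 1.35).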
